A study of Mus musculus with 18 samples.

Results

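The genes described here are 10 genes of dietary fat packaging, taken by name from the 32286 gene features counted in each library: the apolipoproteins Apoa1, Apoa4, Apob, Apoc2 and Apoc3, the transfer protein gene Mttp, the acyltransferase genes Mogat2 and Dgat1, the sterol transporter gene Npc1l1 and the lipase gene Pnliprp2. Enterocytes take up fatty acids, monoglycerides and cholesterol from the gut lumen, rebuild triglyceride in the endoplasmic reticulum and load it onto apolipoprotein B, and the resulting chylomicron leaves for the lymph carrying further apolipoproteins on its surface. This programme is a property of absorptive cells and is switched on as they leave the crypt and move up the villus.

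Single-cell RNA-seq was read from 8 libraries of GFP-sorted ileal epithelium, 2 for each of 4 groups, all from male C57Bl6 mice aged 60 to 65 days that received tamoxifen at 70 mg/kg and were killed 5 days later. All mice carried Lgr5-GFP-CreERT2. Those called Setdb1-KO were also homozygous for Setdb1lox, and those called WT were not. In the Lgr5+ experiment GFP marks cells that express the knock-in Lgr5 allele. The lineage-traced experiment compared the same genotypes with the nTnG reporter (ROSA-tdTomato/EGFP), in which GFP stays on in the progeny of Lgr5+ cells. Every group carried the Lgr5-driven, tamoxifen-induced Cre, whose knock-in allele is expressed in only part of the crypts. The other 10 samples of the series were not analysed here. Barcodes were kept with 1000 (Lgr5+) or 500 (lineage-traced) to 18000 UMIs and under 5% mitochondrial UMIs, which left 2894 to 11423 cells per library in the Lgr5+ experiment (median 4686 to 9336 UMIs per cell) and 3882 to 10239 in the lineage-traced one (median 961 to 2085 UMIs). Each library held 16881518 to 81876035 UMIs in all. Any pair of libraries shared at most 0.449% of the smaller one's kept barcodes.

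Cells were put into classes by their marker UMIs, none of which came from the 10 genes. An enterocyte had at least 1% of its UMIs in enterocyte markers, and it was called mature when at least 0.2% (and at least 3 UMIs) fell on markers of villus enterocytes, early otherwise. The cut divides a continuous range: 2.12% to 18.6% of the enterocytes of a library lay within 25% of the 0.2% limit. The 1% limit was less clear still, with 84 to 875 barcodes of a library within 25% of it, among them 525 in lineage-traced WT 1 and 875 in lineage-traced WT 2, which held 881 and 216 enterocytes. Against the other classes, the early class was led by Rbp2 and Fabp1 in the Lgr5+ experiment and by Fabp1 and Rbp2 in the lineage-traced one. Both are enterocyte genes of vitamin A and fatty acid binding. Both are also among the enterocyte markers that set the class, so their lead follows from the selection. The mature class was led by Apoa1 in the Lgr5+ experiment and by Apoa4 in the lineage-traced one, both among the genes described here. The antimicrobial genes Reg1 and Reg3a also stood among the 10 leading genes of some of these classes. In the Lgr5+ experiment the libraries held 174, 386, 334 and 803 early and 41, 42, 48 and 121 mature enterocytes (WT 1, WT 2, Setdb1-KO 1, Setdb1-KO 2). In the lineage-traced experiment they held 294, 74, 57 and 223 early and 587, 142, 5 and 13 mature enterocytes.

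A pair of facts about the libraries touches every lineage-traced result. First, free RNA was abundant there: Paneth cell markers made up 35.6% and 38.3% of the UMIs of nearly empty barcodes (10 to 100 UMIs) in the WT libraries, 15.7% and 23.8% in the Setdb1-KO libraries, and 5.43% to 12.5% in the Lgr5+ experiment. Second, 59.4% of the kept barcodes of lineage-traced WT 2 received no class, and Paneth markers made up 29.3% of their UMIs, close to the empty barcodes of that library. Setdb1 itself stood at 11.3 and 9.93 CPM (UMIs of the gene scaled to a common total of UMIs per class or library) in the Lgr5+ WT libraries and 5.32 and 6.21 CPM in the Lgr5+ Setdb1-KO libraries, and at 6.11 and 4.21 CPM against 10.4 and 7.85 CPM in the lineage-traced ones. The 3′ end counted here lies outside the deleted exon, so these values check no label. The hepatocyte gene Alb was at 0.105 to 1.74 CPM.

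In the GRCm38 annotation Apoa1 (chr9:46228580-46230466, plus strand), Apoc3 (chr9:46232933-46235636, minus strand) and Apoa4 (chr9:46240696-46243459, plus strand) are neighbours, with Apoc3 facing the other way. Apob lies at chr12:7977648-8016835, Apoc2 at chr7:19671579-19677941, Mttp at chr3:138089854-138144968, Mogat2 at chr7:99219084-99238619, Dgat1 at chr15:76502015-76511953, Npc1l1 at chr11:6211013-6230143 and Pnliprp2 at chr19:58759719-58777534. RefSeq promoter windows (build GRCm38.p6) matched 7 of the 10 genes. They were not found for Apoc3, Mogat2 and Dgat1. Motifs were searched in the 250 bases before the start that the RefSeq windows use, which lies downstream of the gene starts given here. The part of each window before the first annotated start is shown for 3 apolipoprotein genes that followed enterocyte maturation and for Pnliprp2, which did not, in 200 bases for Apoa1, 102 for Apoa4, 202 for Apob and 246 for Pnliprp2. Capitals mark matches on either strand to 4 motifs: the HNF4 core CAAAGTNCA, the GATA core TGATAA, the HNF1 half-site GTTAAT and the TATA box TATAAA.
Apoa1, chr9:46228380-46228579, plus strand: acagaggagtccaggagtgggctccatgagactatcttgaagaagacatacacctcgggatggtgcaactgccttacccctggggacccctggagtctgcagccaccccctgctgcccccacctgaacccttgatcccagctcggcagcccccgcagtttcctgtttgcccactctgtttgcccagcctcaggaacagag
Apoa4, chr9:46240594-46240695, plus strand: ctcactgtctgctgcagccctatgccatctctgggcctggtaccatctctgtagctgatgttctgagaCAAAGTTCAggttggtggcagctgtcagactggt
Apob, chr12:7977427-7977628, plus strand: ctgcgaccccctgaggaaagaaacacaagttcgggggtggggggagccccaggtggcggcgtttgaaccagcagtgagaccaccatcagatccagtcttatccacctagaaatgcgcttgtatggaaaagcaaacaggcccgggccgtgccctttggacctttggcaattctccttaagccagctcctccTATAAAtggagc
Pnliprp2, chr19:58759473-58759718, plus strand: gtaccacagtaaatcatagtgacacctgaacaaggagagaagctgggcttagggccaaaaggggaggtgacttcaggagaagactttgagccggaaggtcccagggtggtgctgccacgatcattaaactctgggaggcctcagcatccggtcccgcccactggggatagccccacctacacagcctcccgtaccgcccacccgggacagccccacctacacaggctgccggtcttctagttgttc
Apoa4 held the HNF4 core as CAAAGTTCA, 182 bases before the RefSeq start and 34 before the gene start given here. The core was in 1.19% of all 32851 promoter windows. Apob held a TATA box 60 bases before the RefSeq start and 31 before the gene start given here, a sequence found in 12.4% of the windows. Neither the Apoa1 nor the Pnliprp2 window held any of the 4 motifs, which says only that these letters are not in those 250 bases. Among the members not printed, Apoc2 held the GATA core (7.94% of the windows) and Apoc2 and Npc1l1 held the HNF1 half-site (6.43%).

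The first comparison asked how the packaging genes change as enterocytes mature. In the Lgr5+ experiment all 9 members that passed the count filter rose from early to mature enterocytes, from a log2 change of 1.04 ± 0.07 (SE) for Dgat1 to 4.39 ± 0.14 for Apoc2 (edgeR quasi-likelihood test with the library as a block, adjusted p = 2.1e-07 or lower, n = 4 libraries). Of all 6870 genes tested, 16.4% were called higher and 14.7% lower in mature cells. In the lineage-traced experiment 9 of 10 rose, against 26.9% of 3106 genes called higher and 19.3% called lower. That fit includes Setdb1-KO 1 with its 5 mature cells, in which Apoa4, Apoc2, Apoc3, Mogat2 and Npc1l1 have no UMI, and without this library the same 9 genes were called among 4512 tested. Mogat2 was higher in mature cells of the WT libraries, but stood at 33.7 CPM against 35.9 CPM in early cells of Setdb1-KO 2, where the mature level is 1 UMI. Of the 9, Mogat2 lost its call under 4 of the other settings (without WT 2 its adjusted p was 0.21) and Apoc3 lost it with DESeq2 (adjusted p = 0.22). These tests compare classes of the same libraries, and their p-values measure only the spread between those sums.

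In the Lgr5+ experiment the step was steepest among the surface apolipoproteins. Apoa1, the main protein of high-density lipoprotein and an abundant chylomicron protein, stood at 576, 618, 886 and 689 CPM in early and at 6215, 7227, 9026 and 6261 CPM in mature enterocytes of the Lgr5+ experiment (WT 1, WT 2, Setdb1-KO 1, Setdb1-KO 2). The mature level was 9.09 to 11.7 times the early level in every one of these libraries, and the ranges of the classes lay far apart. Apoa4, which is secreted with chylomicrons, went from 65.1, 65.1, 87.9 and 108 CPM to 384, 576, 761 and 740.4 CPM. Apoc3, an inhibitor of lipoprotein lipase, went from 162, 131, 228 and 229.8 CPM to 717, 820.0, 1129 and 1009 CPM. Apoc2, the activator of lipoprotein lipase, went from 8.46, 28.4, 26.7 and 23.7 CPM to 338, 410.0, 369 and 687 CPM in mature ones. The change of Apoc2 was the steepest of the 9 in this experiment, with a log2 change of 4.39 against 3.43 ± 0.06 for Apoa1, 2.98 ± 0.09 for Apoa4 and 2.35 ± 0.08 for Apoc3.

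The other 5 genes rose by less in this experiment. Apob, the scaffold of the chylomicron, went from 66.4, 57.9, 59.0 and 44.97 CPM to 177, 211, 238 and 141 CPM (log2 change 1.82 ± 0.12). Mttp, which loads lipid onto apolipoprotein B, went from 169, 189, 162 and 147 CPM to 389, 377, 362 and 374 CPM (1.24 ± 0.09). Mogat2, which acylates monoglyceride, went from 144, 129, 176 and 183 CPM to 325, 325, 407 and 445 CPM (1.31 ± 0.08). Dgat1, which adds the last acyl chain of triglyceride, went from 355, 335, 368 and 357 CPM to 666, 628, 765 and 733 CPM. Npc1l1, the cholesterol uptake transporter, went from 35.8, 18.5, 21.4 and 22.6 CPM to 53.7, 71.6, 69.9 and 60.0 CPM (1.49 ± 0.19). For each of these 5 genes the highest early level lay below the lowest mature level. The order was another in the lineage-traced WT libraries, where Apob in mature cells was 5.66 and 7.19 times its early level, against 6.73 and 7.54 times for Apoa4, 5.63 and 4.69 times for Apoa1, 3.48 and 3.89 times for Apoc2 and 2.79 and 3.18 times for Apoc3.

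Mature enterocytes of the lineage-traced WT libraries held Apoa1 at 6077 and 6083 CPM, just below the lowest Lgr5+ library (6215 CPM), and higher levels of the other apolipoproteins. Apoa4 stood at 3438 and 2709 CPM, Apob at 1517 and 1307 CPM, Apoc2 at 1822 and 1507 CPM and Apoc3 at 1514 and 1365 CPM. Mogat2 went the other way, at 111 and 83.5 CPM, and Dgat1 at 363 and 316 CPM, both below every Lgr5+ library. Mttp and Npc1l1 lay above every Lgr5+ library, at 2.37 and 2.69 times (Mttp) and 4.92 and 3.50 times (Npc1l1) their early levels. Which experiment a cell came from cannot be told apart from the sort, the depth and the run. The summed villus markers of the mature class were at 7127 and 6420 CPM in these libraries and at 3075 to 3366 CPM in the Lgr5+ experiment. Median depth in the mature class was 1203 and 1393 UMIs per cell there and 5202 to 12132 in the Lgr5+ experiment. A mature cell needed at least 3 marker UMIs, which is a larger share of a shallower cell. The part of depth in the marker level was not tested.

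**Figure D1:**
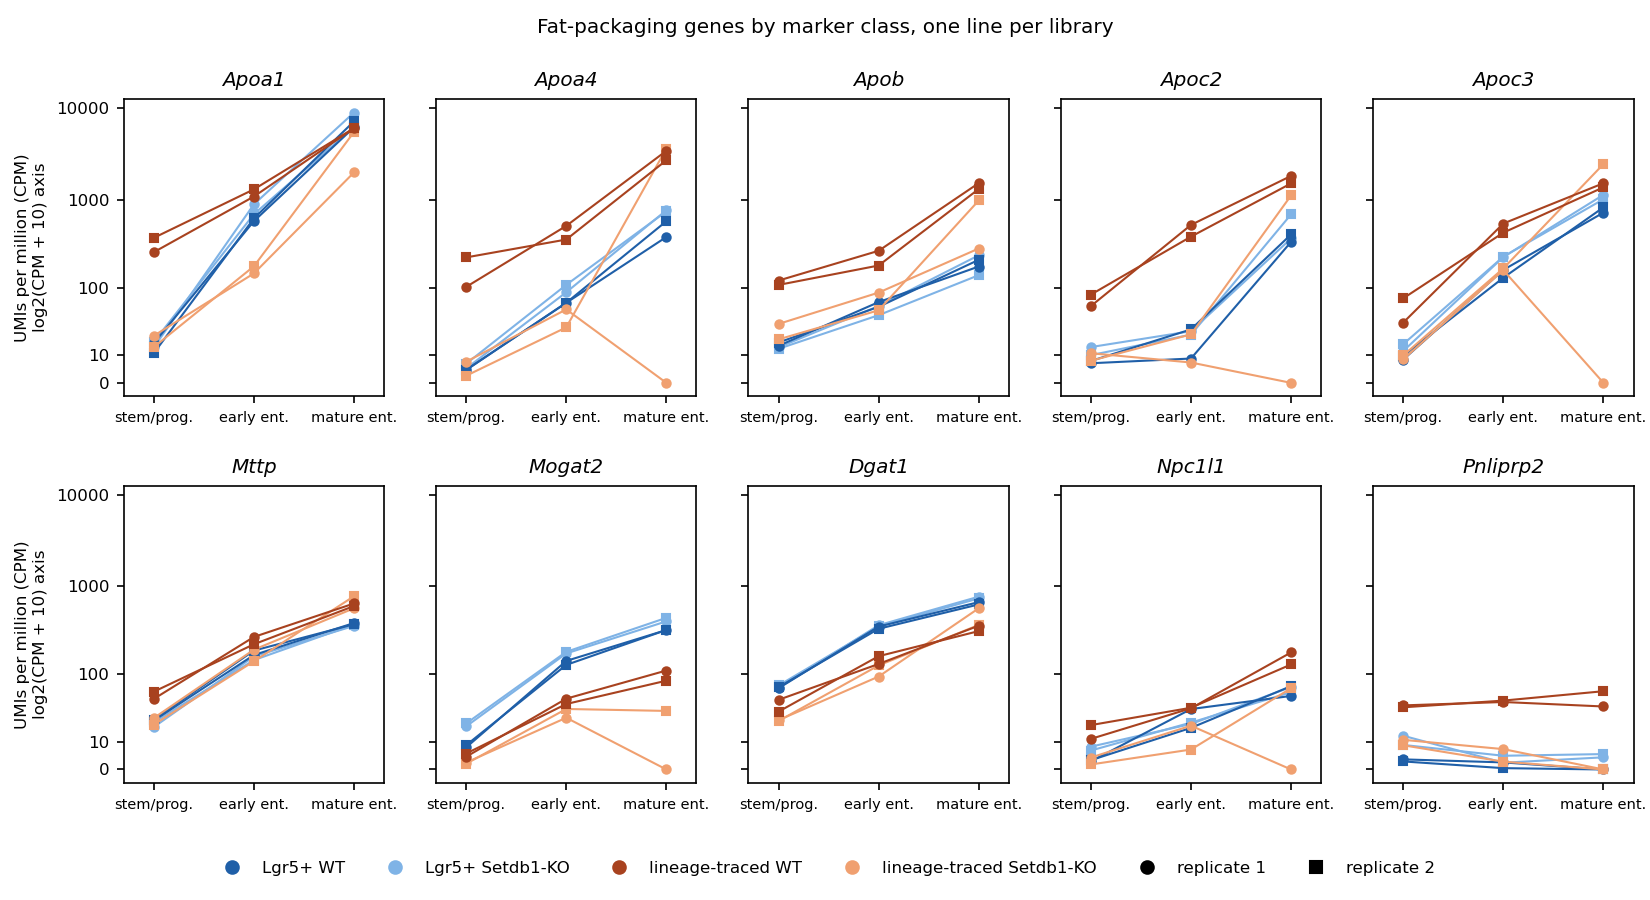
Level of each of the 10 genes in stem and progenitor cells, early enterocytes and mature enterocytes, in CPM on a log2(CPM + 10) axis, with a line for each of the 8 libraries (colour, group; marker, replicate). From early to mature cells the lines of the Lgr5+ libraries and the lineage-traced WT libraries rise for every gene but Pnliprp2, and lineage-traced Setdb1-KO 1 rests on 5 mature cells, with no UMI of several genes.

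Of the 50 other fat absorption genes listed for comparison, 37 were tested in the Lgr5+ experiment and 23 in the lineage-traced one, and 21 rose with maturation in each, with none lower, beside the 16.4% and 26.9% of all genes called higher. Their median log2 change was 0.70 and 1.41, against -0.01 and 0.02 for all genes. In the Lgr5+ experiment the smallest adjusted p-values belonged to Acsl5 (log2 change 1.97), which activates fatty acids, P4hb (0.99), the partner subunit of Mttp, Tm6sf2 (0.97), a lipid transfer factor of the endoplasmic reticulum, Dgat2 (1.94), another triglyceride-forming enzyme, Sar1b (0.85), the GTPase of chylomicron transport vesicles, and Slc27a4 (1.70), a fatty acid transport protein. In the lineage-traced experiment they belonged to Acsl5 (1.77), Slc27a4 (2.21), Creb3l3 (1.69), a transcription factor of triglyceride metabolism, P4hb (1.41), Dgat2 (2.10) and Abcg5 (2.21), a component of the sterol exporter. By role, in the Lgr5+ and lineage-traced experiments 5 of 9 and 5 of 5 tested genes of glycerolipid synthesis rose, 4 of 6 and 6 of 6 of assembly and export, 5 of 6 and 3 of 3 of the lipid droplet group, 3 of 4 and 3 of 3 of sterol handling, 2 of 2 and 1 of 1 of lipid uptake, and 1 of 9 and 2 of 4 of the transcription factors. The only apolipoprotein-related gene of the list that was tested, Apobec1, the editing enzyme of Apob mRNA, rose in both (1.14 and 1.80).

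Pnliprp2 was the exception, with its highest levels in Paneth cells. This lipase, a relative of pancreatic lipase, stood at 0 to 4.74 CPM in early and mature enterocytes of the Lgr5+ experiment and failed the count filter there. In lineage-traced WT libraries it stood at 44.7 and 46.6 CPM in early and 38.8 and 61.7 CPM in mature enterocytes. In Paneth cells of the Lgr5+ libraries it stood at 889, 548, 967 and 765 CPM, on 44, 15, 12 and 215 cells (WT 1, WT 2, Setdb1-KO 1, Setdb1-KO 2). Paneth cells also held the highest levels in the lineage-traced experiment, at 353 and 296 CPM in WT and 219 and 196 CPM in Setdb1-KO, and Pnliprp2 was among the 10 leading genes of the Paneth class there. When each cell was thinned to 1000 UMIs, 47.4% to 66.7% of Lgr5+ and 15.4% to 30.0% of lineage-traced Paneth cells kept a Pnliprp2 UMI (86.7% to 100% and 30.1% to 78.4% before thinning). Early enterocytes thinned the same way kept one in 0 to 0.575% of cells in the Lgr5+ experiment. Across 64 sums of class and library, the 3 genes whose log2(CPM + 10) was most like that of Pnliprp2 were Lyz1 (Pearson r = 0.93), Clps (0.90) and Defa26 (0.90). Clps encodes colipase, the cofactor of pancreatic lipase, and the other 2 are antimicrobial proteins of Paneth cells. The same measure placed Apoa4 (0.92), Slc5a1 and Papss2 beside Apob. These correlations are over sums that share libraries, and they describe a pattern only.

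Other members were also found outside the absorptive lineage. Apoc2 stood at 43.1, 35.5, 53.2 and 65.1 CPM in goblet cells and at 65.1, 54.2, 41.2 and 73.7 CPM in Paneth cells of the Lgr5+ experiment, above its level in early enterocytes in all 4 libraries. The Paneth values rest on few UMIs in 3 libraries, at 4.15%, 1.19%, 0.718% and 10.1% of the 651, 754, 836 and 1897 Apoc2 UMIs. Stem and progenitor cells held 6.38 to 14.6 CPM of Apoc2 and tuft cells 5.22 to 15.7 CPM, so the goblet and Paneth ranges did not overlap with theirs. Free RNA, scaled on the Paneth markers in the goblet class, would have given 3.38 to 7.15 CPM of Apoc2. Npc1l1 stood at 29.8, 17.1, 36.5 and 33.4 CPM in enteroendocrine cells, a range that overlapped with that of early enterocytes, and at 2.27 to 7.75 CPM in stem and progenitor cells. Goblet cells held 15.6% to 23.0% of its UMIs. Apob was higher in enteroendocrine cells (57.4, 63.1, 52.4 and 43.4 CPM) than in goblet cells (3.95 to 11.8 CPM) and lay at the level of early enterocytes. The part of free RNA in the enteroendocrine and Paneth values was not tested. In the lineage-traced experiment Apoc2 in Paneth cells was 1.22 and 0.858 times its stem and progenitor level in WT and 3.77 and 5.10 times in Setdb1-KO. Goblet cells of those WT libraries held 5.11% and 7.15% of the Apoc2 UMIs.

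**Figure D2:**
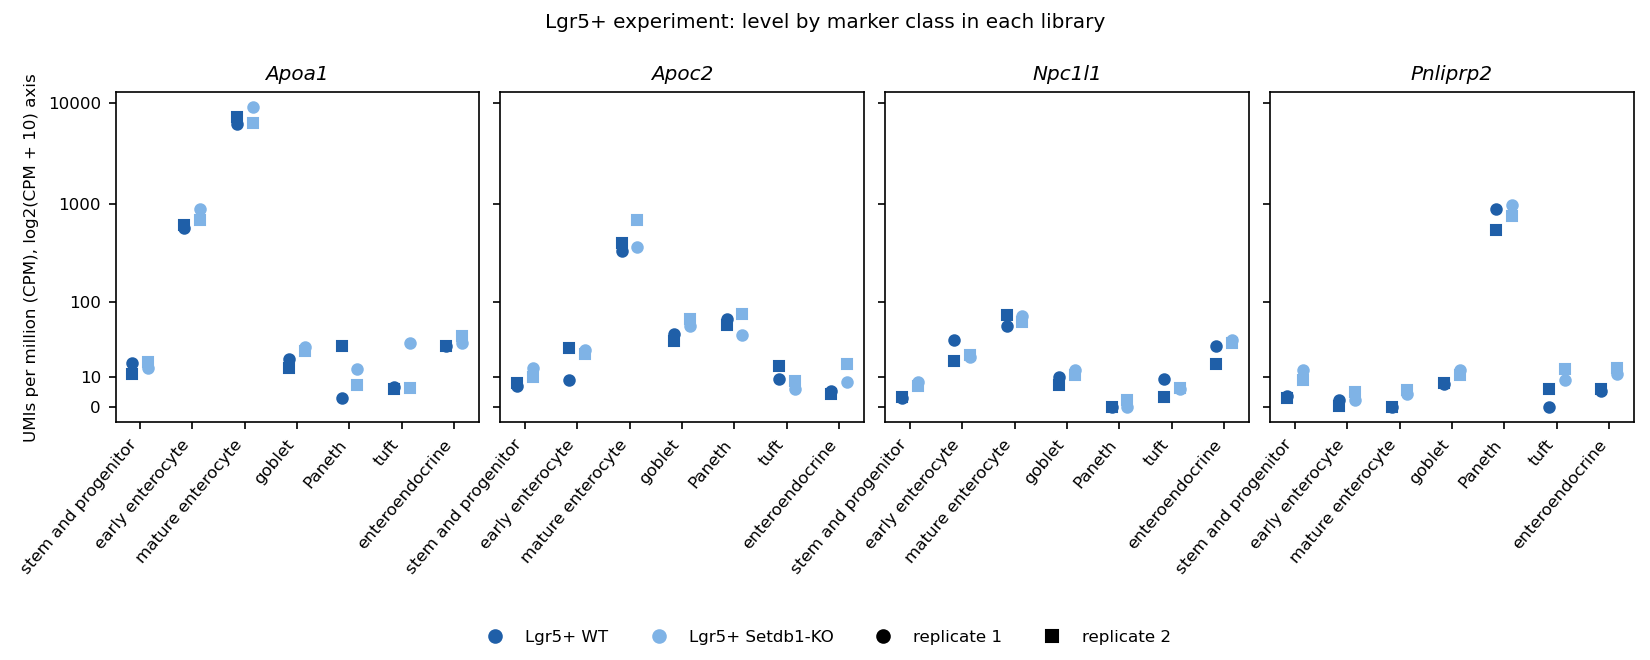
Levels of Apoa1, Apoc2, Npc1l1 and Pnliprp2 in 7 marker classes of the Lgr5+ experiment, in CPM on a log2(CPM + 10) axis, a point for each of the 4 libraries. Apoa1 is high in enterocytes alone, Apoc2 also in goblet and Paneth cells, Npc1l1 also in enteroendocrine cells, and Pnliprp2 stands at 548 to 967 CPM in Paneth cells.

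The second comparison asked how loss of Setdb1 changed the packaging genes in libraries sorted for Lgr5-driven GFP. The sort left in differentiated cells that did not carry GFP, mature enterocytes, goblet and Paneth cells among them, and whether those cells had lost Setdb1 cannot be read from these counts. Over all kept cells 5 of the 10 genes rose in Setdb1-KO and none fell, against 0.812% of 13662 genes called higher and 0.527% called lower. Mogat2 rose from 20.4 and 22.5 CPM to 51.3 and 42.3 CPM, a log2 change of 1.13 ± 0.11 (edgeR adjusted p = 0.011). Apoc3 rose from 23.5 and 25.2 CPM to 66.6 and 47.1 CPM (1.22 ± 0.14, adjusted p = 0.018) and Apoa4 from 10.6 and 12.0 CPM to 31.3 and 22.5 CPM (1.24 ± 0.15, adjusted p = 0.021). Apoc2 rose from 16.91 and 18.2 CPM to 30.3 and 30.9 CPM (0.81 ± 0.11, adjusted p = 0.028) and Npc1l1 from 6.99 and 5.86 CPM to 13.3 and 10.6 CPM (0.90 ± 0.12, adjusted p = 0.030). For these 5 genes both Setdb1-KO libraries lay above both WT libraries.

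The remaining members did not pass. Apoa1 was at 111 and 112 CPM in WT and at 336 and 147 CPM in Setdb1-KO, where the replicates lay far apart (adjusted p = 0.13). Pnliprp2 was at 14.3 and 7.91 CPM and at 19.5 and 42.3 CPM (adjusted p = 0.12). In Setdb1-KO 2, the highest of them, Paneth cells were 1.88% of the kept cells, against 0.245% to 0.923% in the other 3 libraries, and they held 76.9% of its Pnliprp2 UMIs. The part of Paneth cells in that difference was not tested. Apob (19.7 and 22.2 against 25.2 and 17.5 CPM), Mttp (37.7 and 41.8 against 48.4 and 38.3 CPM) and Dgat1 (96.1 and 98.8 against 129 and 108 CPM) had adjusted p-values of 0.97, 0.66 and 0.18. None of the 46 tested genes of the wider list was called.

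In a sum over all kept cells, more cells of a type and more RNA per cell cannot be told apart. Early enterocytes were 3.65% and 6.29% of the WT cells and 11.5% and 7.03% of the Setdb1-KO cells, and mature ones 0.860% and 0.685% against 1.66% and 1.06%. The libraries of the genotypes did not overlap, and 2 against 2 libraries cannot give an exact two-sided permutation p below 0.33, which is the value found for both classes. The 5 called genes had different sources. Early enterocytes held 24.5% to 38.4% of the Apoa4 UMIs, 27.6% to 46.8% of Apoc3, 28.2% to 46.9% of Mogat2, 16.0% to 22.2% of Npc1l1 and 2.00% to 12.1% of Apoc2. Mature enterocytes held 34.0% to 49.2% of Apoa4, 22.1% to 34.3% of Apoc3, 10.7% to 16.0% of Mogat2, 5.84% to 10.7% of Npc1l1 and 16.7% to 24.6% of Apoc2. Goblet cells held 27.4% to 40.6% of the Apoc2 UMIs and 15.6% to 23.0% of the Npc1l1 UMIs. Stem and progenitor cells held 20.1% to 29.0% of Npc1l1, 16.2% to 24.3% of Apoc2, 18.9% to 25.6% of Mogat2, 9.14% to 23.3% of Apoc3 and 6.94% to 22.3% of Apoa4, and barcodes without a class 12.8% to 28.3% of Mogat2. The call of the 5 genes was not firm: it fell to 0 with the replicate number as a block. In that fit the log2 changes stayed close to those given (Mogat2 1.13, Apoc2 0.81, Apoc3 1.21). There 8 of the 10 genes had an unadjusted p under 0.05, beside 2323 of all 13662 genes. Without WT 1, which leaves 1 WT library, the log2 changes were 0.70 for Apoc2, 1.11 for Apoc3, 1.09 for Apoa4 and 0.96 for Npc1l1.

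Within enterocytes of the Lgr5+ experiment no member was called by edgeR in Setdb1-KO. In the early class this was 0 of 9 tested, with 0.327% of 8881 genes called higher and 0.293% lower. In the mature class it was 0 of 9, with 0.199% of 4012 genes called higher and 0.150% lower. An unadjusted p under 0.05 was found for 4 members in the early class, beside 1106 of the 8881 genes. In the mature class it was found for 3 members, beside 357 of the 4012 genes. DESeq2 called 1 in the early class, Apoc3 (162 and 131 CPM in WT, 228 and 229.8 CPM in Setdb1-KO), and 0 in the mature class. Over all genes it called 67 of 8881 in the early and 15 of 4012 in the mature class. The median log2 change of the members was 0.25 in the early and 0.21 in the mature class. Leaving out Setdb1-KO 1 or Setdb1-KO 2 gave 0.19 and 0.31 in the early class and 0.20 and 0.29 in the mature class. Such a fit has a genotype with 1 library, which is assumed to vary like the other genotype's libraries. Apoa1 in early enterocytes was at 576 and 618 CPM against 886 and 689 CPM.

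In stem and progenitor cells 3 of the 10 genes rose in Setdb1-KO, against 0.412% of 12386 genes called higher and 0.428% called lower. Mogat2 rose from 7.43 and 8.42 CPM to 19.6 and 21.8 CPM (log2 change 1.42 ± 0.14, edgeR adjusted p = 0.0054). Npc1l1 rose from 2.27 and 2.65 CPM to 7.75 and 6.11 CPM (1.501 ± 0.22, adjusted p = 0.028). Pnliprp2 rose from 2.90 and 2.25 CPM to 13.4 and 8.55 CPM (2.09 ± 0.25, adjusted p = 0.0099). These values rest on 177, 210, 268 and 664 UMIs of Mogat2, 54, 66, 106 and 186 of Npc1l1 and 69, 56, 183 and 260 of Pnliprp2. The class can include absorptive progenitors that fall short of the 1% enterocyte limit. Within 25% of that limit lay 146 of 4768 and 193 of 6133 WT barcodes, and 116 of 2894 and 430 of 11423 Setdb1-KO barcodes. The part of such cells in these rises was not tested.

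Mogat2 and Npc1l1 were called under all 12 other settings tried, while Pnliprp2 lost its call when free RNA was subtracted, where its log2 change was 3.72 ± 0.75 (adjusted p = 0.076). Free RNA would have given 0.350 to 0.554 CPM of Mogat2 and 1.49 to 3.04 CPM of Pnliprp2 in this class. Tuft cells, which take no part in fat absorption, held Mogat2 at 3.00 and 5.24 CPM in WT and 13.9 and 17.7 CPM in Setdb1-KO, on 1, 2, 8 and 13 UMIs. These few tuft UMIs were not tested. Goblet cells held 4.20% and 4.39% of the Mogat2 UMIs of the WT libraries and 1.77% and 6.16% of those of Setdb1-KO. These goblet shares overlapped between the genotypes and were not tested either. Apoa1 was at 17.1 and 11.1 CPM in WT and 14.4 and 18.1 CPM in Setdb1-KO stem and progenitor cells, with overlapping groups. Apob, Mttp and Dgat1 lay between 13.6 and 72.9 CPM in that class and were not called. Apoc2, Apoc3 and Apoa4 were not called either, and Apoa4 had a mean of 3.86 CPM in WT and 5.28 CPM in Setdb1-KO. Apoc2 and Apoc3 were called higher with the replicate block (361 of 12386 genes called) and without the count filter (537 of 18400). In the edgeR fit reported here 6 of the 10 genes had an unadjusted p under 0.05, beside 1913 of 12386 genes.

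The third comparison asked the same of lineage-traced cells, which include the villus progeny of Lgr5+ cells. Over all kept cells all 10 genes fell in Setdb1-KO, against 7.19% of 12205 genes called lower and 1.54% called higher. Their median log2 change was -3.32, against 0.01 for all genes. Apoa4 fell most, from 293 and 266 CPM to 7.23 and 7.18 CPM (log2 change -5.79 ± 0.34, edgeR adjusted p = 4.0e-07). Apoa1 fell from 628 and 716 CPM to 29.7 and 27.9 CPM (-5.08 ± 0.36) and Apoc2 from 184 and 185 CPM to 16.6 and 14.4 CPM (-4.11 ± 0.29). Apoc3 fell from 127 and 140.4 CPM to 8.89 and 17.4 CPM (-3.81 ± 0.38) and Apob from 173 and 132 CPM to 29.3 and 17.6 CPM (-3.26 ± 0.30). For each of these 5 genes both Setdb1-KO libraries lay below both WT libraries.

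The other 5 genes fell as well. Npc1l1 went from 22.2 and 19.3 CPM to 4.67 and 1.83 CPM (-3.37 ± 0.31), Mogat2 from 11.2 and 12.99 CPM to 1.89 and 3.03 CPM (-2.68 ± 0.29), Mttp from 81.1 and 80.0 CPM to 27.9 and 22.6 CPM (-2.22 ± 0.25) and Dgat1 from 58.3 and 57.2 CPM to 25.9 and 27.5 CPM (-1.63 ± 0.24). Pnliprp2 went from 172 and 122 CPM to 35.0 and 18.03 CPM (-3.04 ± 0.32), and Paneth cells, its main source, were 12.0% and 6.75% of the WT cells and 7.39% and 2.35% of the Setdb1-KO cells. All 10 calls held under all 11 other settings tried. In the wider list 20 of 45 tested genes fell and none rose, beside the 7.19% of all genes called lower, led by Creb3l3 (-3.36), Slc27a4 (-2.63), Dgat2 (-2.58), Abcg8 (-2.45), Abcg5 (-2.49) and Gpat3 (-2.93), an enzyme of glycerolipid synthesis. All 3 genes of lipid uptake fell, 4 of 5 of sterol handling and 6 of 12 of glycerolipid synthesis and 1 of 9 of the transcription factors, the last near the share of all genes.

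**Figure D3:**
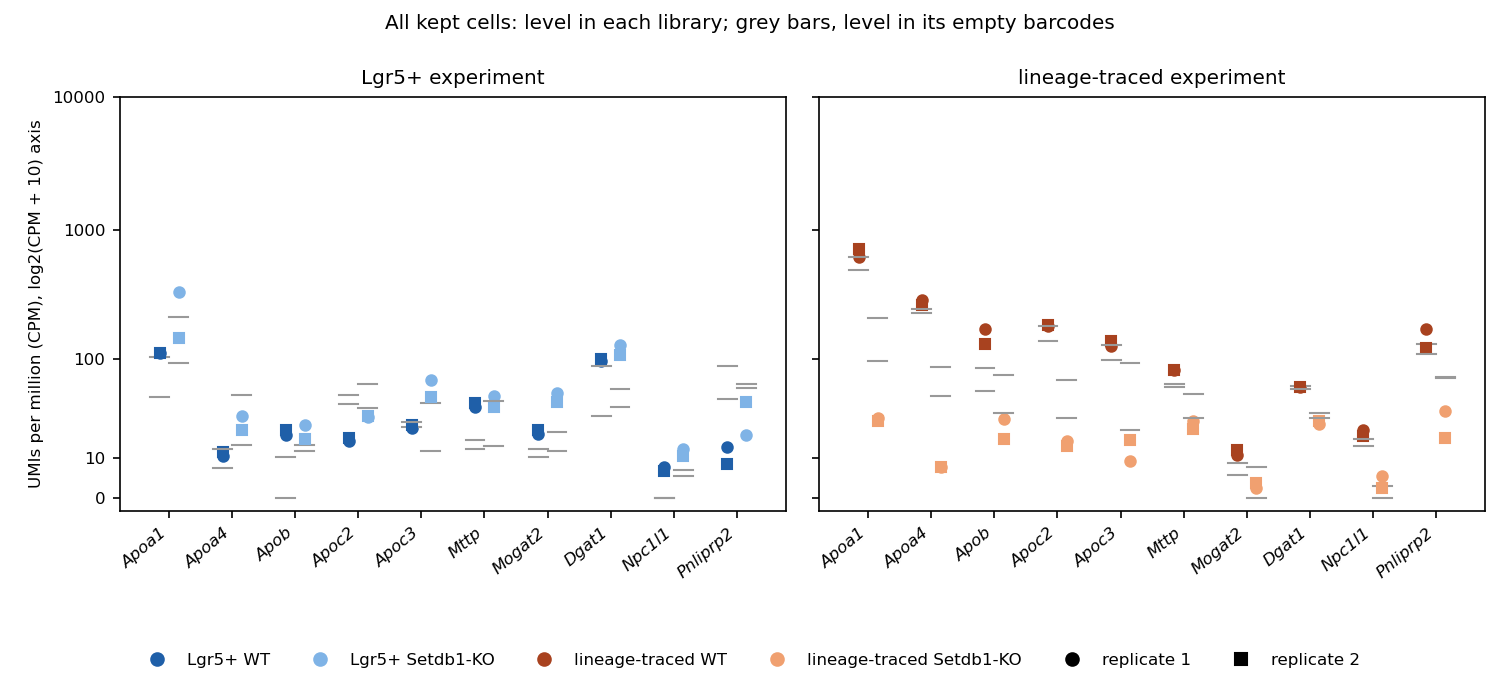
Level of each gene over all kept cells, in CPM on a log2(CPM + 10) axis, in each of the 4 libraries of both experiments; grey bars give the level in the nearly empty barcodes of the same library. In the lineage-traced experiment every WT point lies above both Setdb1-KO points, and WT points sit close to their empty-barcode bars (Apoa1 at 628 and 716 CPM against 497 and 621 CPM).

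Free RNA carried the same genes. In nearly empty barcodes Apoa1 was at 497 and 621 CPM in the WT libraries and at 211 and 96.0 CPM in the Setdb1-KO libraries, and Apoa4 at 230.2 and 248 CPM against 85.3 and 48.0 CPM. Goblet cells, which do not make chylomicrons, held Apoa1 at 268 and 395 CPM in WT and at 15.7 and 8.94 CPM in Setdb1-KO. Cells outside the enterocyte classes therefore carried the difference too, and mature enterocytes, at 7.47% and 3.66% of WT cells against 0.104% and 0.127% of Setdb1-KO cells, held 53.7% and 34.6% of the Apoa4 UMIs of the WT libraries, beside 16.0% and 37.0% in barcodes without a class. The exact permutation p for the mature share was 0.33, the smallest that 2 against 2 libraries can give, and that for the early share, at 3.74% and 1.91% against 1.18% and 2.18%, was 0.67. When only cells with a class were summed, all 10 genes were still called, with a median log2 change of -3.19, beside 787 of 11784 genes called lower.

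**Figure D4:**
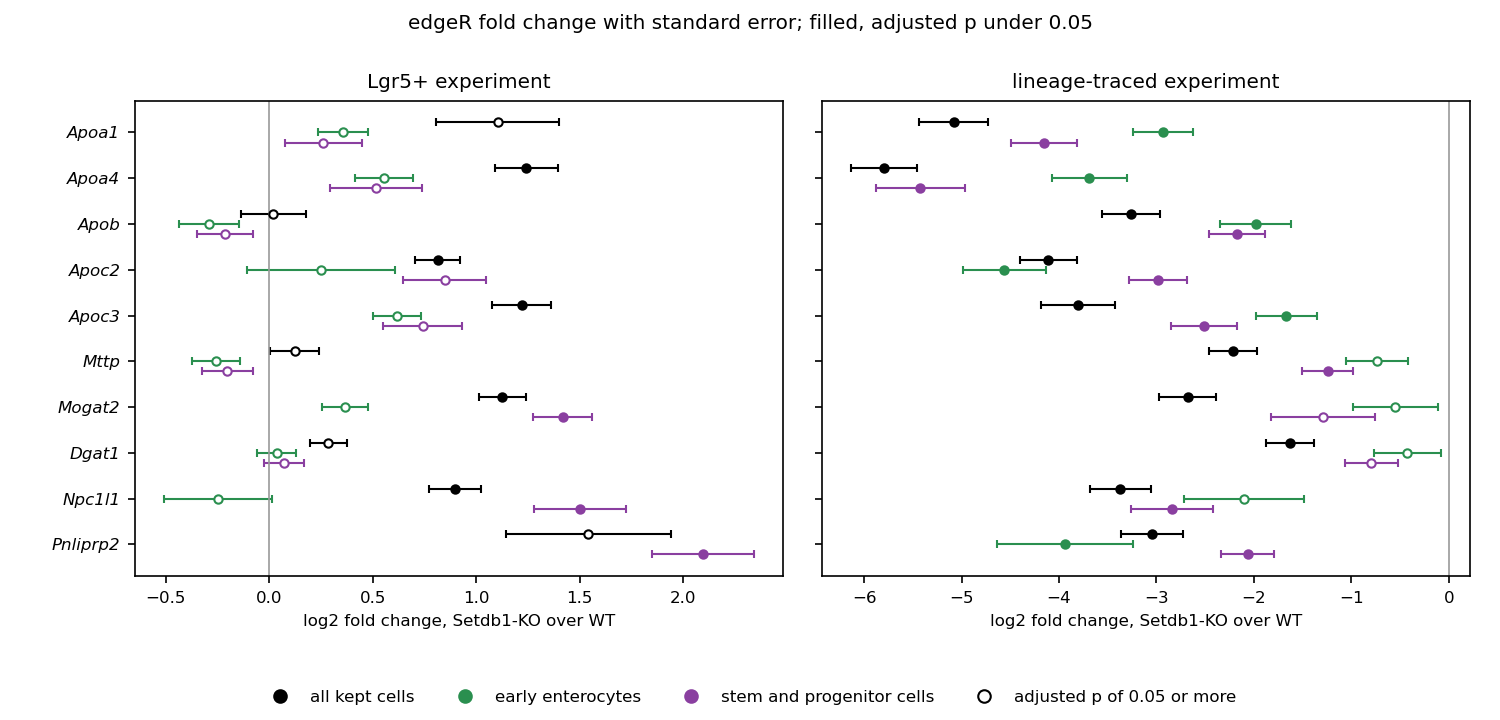
Log2 fold change of Setdb1-KO over WT with its standard error, for the 10 genes in 3 sets of cells (colour) of the Lgr5+ and lineage-traced experiments; filled points had an edgeR adjusted p under 0.05. The horizontal scales differ between the panels: called genes lie between 0.81 and 2.09 in the Lgr5+ experiment and between -5.79 and -1.24 in the lineage-traced one.

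Early enterocytes allowed the comparison within a class. There 6 of the 10 genes fell in lineage-traced Setdb1-KO, against 3.83% of 3444 genes called lower and 0.290% called higher. Apoa1 fell from 1080.2 and 1297 CPM to 147 and 178 CPM (log2 change -2.93 ± 0.31, edgeR adjusted p = 1.1e-06) and Apoa4 from 511 and 359 CPM to 53.6 and 30.4 CPM (-3.69 ± 0.39, adjusted p = 1.1e-06). Apoc2 fell from 523 and 387 CPM to 6.70 and 23.9 CPM (-4.56 ± 0.42, adjusted p = 2.4e-07). Apob fell from 268 and 182 CPM to 87.1 and 52.2 CPM (-1.98 ± 0.36, adjusted p = 0.00090) and Apoc3 from 543 and 429 CPM to 161 and 169 CPM (-1.67 ± 0.31, adjusted p = 0.0012). All 5 apolipoproteins thus fell in this class. The levels in Setdb1-KO 1 rest on few UMIs: 22 of Apoa1, 8 of Apoa4, 1 of Apoc2, 13 of Apob and 24 of Apoc3. The sixth gene, Pnliprp2, fell from 44.7 and 46.6 CPM to 6.70 and 2.17 CPM (-3.94 ± 0.70), but free RNA alone would have given 26.8 and 37.5 CPM of it in the WT libraries, and it was not tested in the fit with free RNA subtracted.

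The genes of triglyceride synthesis and lipid transfer did not pass the test in the same cells. Mttp was at 271 and 224 CPM in WT and 194 and 142 CPM in Setdb1-KO (adjusted p = 0.31), Mogat2 at 49.5 and 42.0 against 26.8 and 35.9 CPM (adjusted p = 0.69) and Dgat1 at 132 and 163 against 93.8 and 127 CPM (adjusted p = 0.70). Each of the 3 was lower in both Setdb1-KO libraries without passing the test. Npc1l1 was at 36.7 and 37.3 against 20.1 and 6.52 CPM (adjusted p = 0.055). These values rest on 31, 9, 4 and 33 UMIs of Mogat2 and 23, 8, 3 and 6 of Npc1l1 (WT 1, WT 2, Setdb1-KO 1, Setdb1-KO 2). Only 17 genes of the wider list could be tested, and 1 fell, Slc27a4 (-1.83, adjusted p = 0.035).

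Several measures moved with the early enterocyte result. Free RNA would have given 100.2 and 214 CPM of Apoa1 in the WT libraries and 12.0 and 6.53 CPM in the Setdb1-KO libraries, less than the measured levels in all 4. With free RNA subtracted from each sum the 5 apolipoproteins were still called, beside 77 of 3039 genes called lower. The estimate for Apoa1 in WT lies below the goblet cell levels given above, so the subtraction may leave RNA of other cells. The summed villus markers in this class were at 902 and 1040.2 CPM in WT and at 609 and 387 CPM in Setdb1-KO, and the part of maturity within the class was not tested. After thinning to 1000 UMIs, 40.6% and 46.3% of the WT early enterocytes and 9.52% and 12.5% of the Setdb1-KO ones kept an Apoa1 UMI (66.3%, 70.3%, 28.1% and 29.1% before thinning, with 77, 20, 15 and 7 cells too shallow to thin). In goblet cells the thinned shares were 16.5% and 23.2% against 1.93% and 0.729%. Only 57 early enterocytes came from Setdb1-KO 1, and without that library the median log2 change of the 10 members was -2.27. It was -1.72 without WT 1 (7 members tested), -2.06 without WT 2 (10) and -1.84 without Setdb1-KO 2 (9). Apoc3 lost its call without WT 2 (log2 change -1.76 ± 0.57) and Pnliprp2 without Setdb1-KO 2 (-2.91 ± 1.20).

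**Figure D5:**
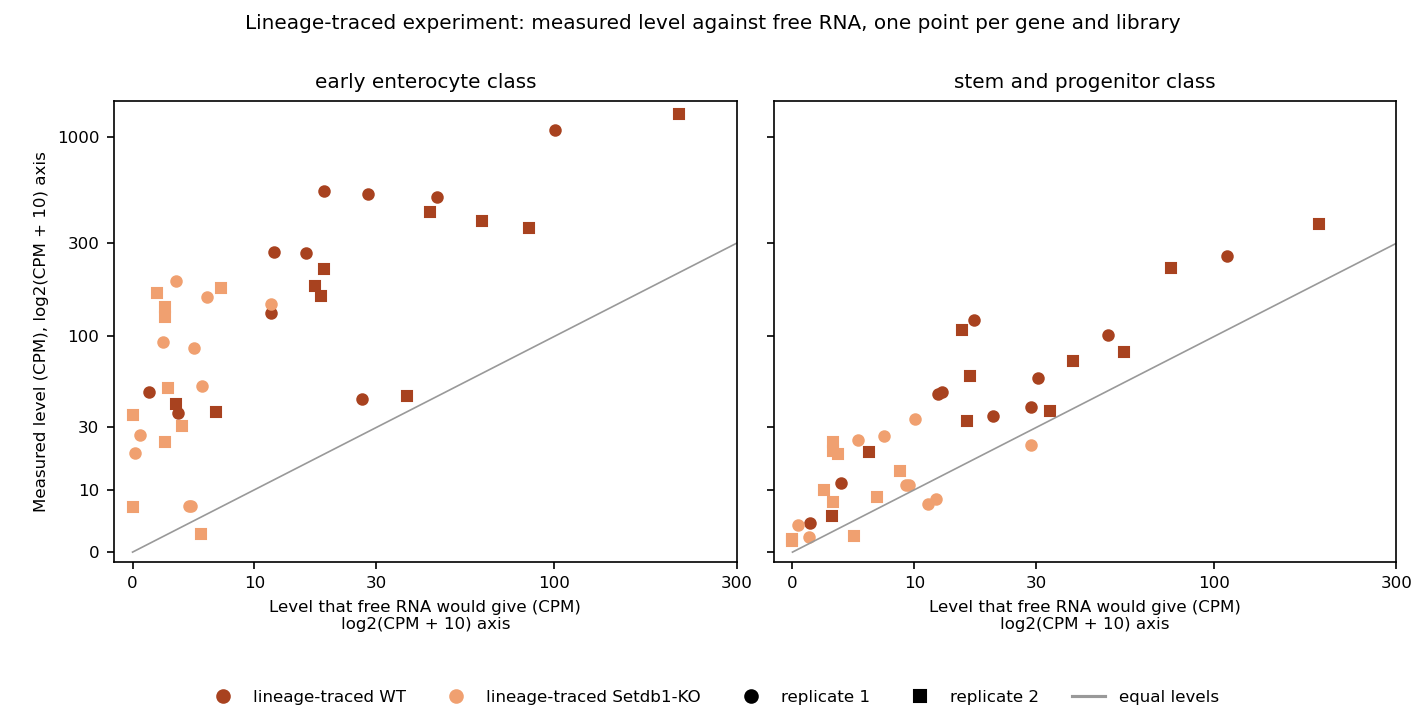
Measured level against the level that free RNA would give, both in CPM on log2(CPM + 10) axes, a point for each gene and lineage-traced library; the grey line marks equal levels. In early enterocytes most points lie well above the line, whereas in stem and progenitor cells they lie closer to it.

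In stem and progenitor cells of the lineage-traced experiment 8 of the 10 genes fell, against 1.54% of 10002 genes called lower and 0.33% called higher. Apoa1 went from 258 and 375 CPM to 22.7 and 14.6 CPM (log2 change -4.16 ± 0.34, edgeR adjusted p = 5.7e-08). These WT levels were no higher than those of goblet cells (268 and 395 CPM). Free RNA scaled on the Paneth markers would have given 108 and 189.7 CPM. With it subtracted 7 of the 10 genes were still called, Apoa1 among them, beside 79 of 9844 genes called lower. This estimate lies below the goblet level, so the subtraction may leave RNA of other cells. Whether the remaining difference lies in the stem and progenitor cells themselves was not tested. Mogat2, which rose in this class in the Lgr5+ experiment, was at 3.78 and 4.94 CPM against 1.89 and 1.55 CPM (adjusted p = 0.48) on 14, 6, 7 and 15 UMIs, and both Setdb1-KO libraries lay below both WT libraries.

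Mature enterocytes of the lineage-traced experiment were not tested between genotypes, because Setdb1-KO 1 held 5 of them. In the 13 mature enterocytes of Setdb1-KO 2 Apoa1 stood at 5523 CPM, Apoa4 at 3637 CPM, Apob at 977 CPM, Apoc2 at 1111 CPM and Apoc3 at 2459 CPM, against 6077 and 6083, 3438 and 2709, 1517 and 1307, 1822 and 1507, and 1514 and 1365 CPM in WT. The 5 cells of Setdb1-KO 1 held Apoa1 at 1991 CPM on 14 UMIs. No UMI of Apoa4, Apoc2 or Apoc3 was found among their UMIs, which allows up to 427 CPM at 3 counts. These few cells have no replicate and carry more counting error than the WT values.

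The change with Setdb1-KO differed between the experiments. Over all kept cells the difference was called by edgeR for 10 of the 10 genes, all lower in the lineage-traced experiment, against 6.07% of 13781 genes called lower and 1.51% called higher. In early enterocytes it was called for 6 of 10, the 5 apolipoproteins and Pnliprp2, against 1.25% of 7465 genes called lower and 0.201% called higher. For Apoa1 the difference in early enterocytes was -3.18 ± 0.35 on the log2 scale (adjusted p = 1.4e-05) and for Mttp -0.44 ± 0.30 (adjusted p = 0.63). The experiments differ in sort, depth and free RNA, and the mean share of mature enterocytes moved in opposite directions with Setdb1-KO. None of these can be told apart from the difference over all kept cells. Sort, depth and free RNA cannot be told apart from that in early enterocytes either.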

How the data were processed

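Ileal epithelial cells were captured with 10x 3′ chemistry after storage in DMSO. The authors deposited raw counts of UMIs per gene and barcode, made with Cell Ranger, per the labels and file headers, on mm10. The submitters' processing notes name Cell Ranger 6.1.1 and Seurat 5.0.3. UMIs were summed per library and marker class. A differentiated lineage was assigned where its markers passed a minimum share and exceeded the share in barcodes of 10 to 100 UMIs (Poisson p under 0.0001). Barcodes of no such lineage were called stem and progenitor where stem and dividing markers made up at least 0.2% of UMIs. That class was not tested against free RNA. Barcodes of several lineages, possible doublets, were left out of classes, and no doublet caller was run. Free RNA in a class was estimated as the empty-barcode level times the ratio of Paneth marker shares. Classes with under 10 cells in a library were not compared between genotypes.

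Sums were tested with edgeR 4.0.16 (filterByExpr, TMM, quasi-likelihood test, Benjamini-Hochberg adjustment over all genes tested) in R 4.3.3, with 2 libraries per genotype. Standard errors are the log2 change over the square root of F. The study describes its single-cell data as coming from biological replicates. The labels do not name separate animals for each library, so p-values measure the spread between libraries. Alternatives were DESeq2 1.42.0, no count filter, other cell limits, leaving out each library and a replicate block. The replicate numbers gave correlated deviations of 0.00989 (Lgr5+) and 0.311 (lineage-traced) over a pair of libraries each. Sums over assigned cells, subtraction of free RNA and the difference between experiments in early enterocytes were chosen after seeing the data. Named genes were the 10 members and, of the wider list, the 6 called genes of smallest adjusted p per comparison. The members and lists were chosen with earlier results of these data known. The code was tested on simulated data. CPM values divide by all UMIs of the class. Some results of the likeness measure and of the wider list are not reported here.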

Additional observations from a re-analysis of the deposited data

Results flagged for a closer look

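The effect of Setdb1-KO differed between the experiments, by the test of the difference itself (edgeR, lineage-traced log2 change minus Lgr5+ log2 change). Over all kept cells it was called for all 10 genes, against 6.07% of 13781 genes called lower and 1.51% called higher. The difference was -7.01 for Apoa4, -6.16 for Apoa1, -4.98 for Apoc3, -4.90 for Apoc2 and -3.28 for Apob. It was -4.58 for Pnliprp2, -4.29 for Npc1l1, -3.77 for Mogat2, -2.32 for Mttp and -1.90 for Dgat1. The mean share of mature enterocytes moved in opposite directions in the experiments. It went from 0.772% in WT to 1.36% in Setdb1-KO (Lgr5+) and from 5.56% to 0.115% (lineage-traced). In sums over all kept cells the number of enterocytes cannot be told apart from RNA per cell. The targeted gene Setdb1 also differed (1.09 ± 0.27, adjusted p = 0.033), and lost its call in 4 of 15 other settings, each leaving out 1 library.

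In early enterocytes 6 of the 10 genes differed, against 1.25% of 7465 genes called lower and 0.201% called higher, a fit chosen after seeing the data. The values were -4.69 for Apoc2, -4.21 for Apoa4, -3.18 for Apoa1, -2.19 for Apoc3, -1.68 for Apob and -5.59 for Pnliprp2. Apob lost its call without Lgr5+ WT 2, lineage-traced WT 1 or lineage-traced Setdb1-KO 2 (adjusted p = 0.086, 0.34 and 0.24). Pnliprp2 lost its call with stricter enterocyte cuts, with free RNA subtracted, and without Setdb1-KO 2 of the Lgr5+ or of the lineage-traced experiment (adjusted p = 0.10, 0.11, 0.0505 and 0.25), with differences of -5.50, -9.91, -4.80 and -4.77. Sort, depth and free RNA differ between the experiments and cannot be told apart from this difference.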

How the results depend on the processing

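Over the called changes of the 10 genes and Setdb1, 790 values under other settings kept their direction and stayed called, 46 lost the call and 0 reversed. Lgr5+ early and mature enterocytes had no called change to follow. The median log2 change of the members in Lgr5+ mature enterocytes was 0.21 and turned to -0.09 with mitochondrial UMIs under 10%. Over all kept Lgr5+ cells 5 genes were called. The count was 1 without filterByExpr, 3 with mitochondrial UMIs under 10%, 0 with the replicate block and 1 to 6 when leaving out 1 library. In Lgr5+ early enterocytes 0 members were called by edgeR. The count was 1 with DESeq2 (67 of 8881 genes), 2 without filterByExpr (351 of 14594) and 1 with mitochondrial UMIs under 10% (50 of 8920). It was 1 with free RNA subtracted (50 of 8830) and 1 with the replicate block (109 of 8881). When leaving out 1 library the median log2 change was 0.19 to 0.38. In Lgr5+ mature enterocytes the count was 3 without filterByExpr (101 of 11732 genes). There the median log2 change was 0.20 to 0.33 when leaving out 1 library. In Lgr5+ stem and progenitor cells, with 3 called, the count was 5 without filterByExpr (537 of 18400 genes) and 5 with the replicate block (361 of 12386). The replicate numbers are shared labels only.

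Counts over all genes ranged, in the Lgr5+ experiment, from 35 to 527 over all kept cells (183 as reported), from 20 to 351 in early enterocytes (55), from 3 to 101 in mature enterocytes (14) and from 103 to 588 in stem and progenitor cells (104). In the lineage-traced experiment they ranged from 586 to 2579 (1066), from 75 to 249 in early enterocytes (142) and from 109 to 789 in stem and progenitor cells (187). Mature against early enterocytes gave 1203 to 2319 (2132) and 428 to 1709 (1436), and the difference between experiments 529 to 2118 (1045) and, in early enterocytes, 47 to 201 (108). The causes were not tested. Lineage-traced mature enterocytes were not fitted between genotypes, since 1 library held 5 cells.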
